A study of Arabidopsis thaliana with 24 samples.

Results

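Transcript levels of the natural accession IP-Svi-0 were compared with those of the reference accession Col-0 in seedlings of Arabidopsis thaliana grown for 23 days at 10 °C. The libraries were chosen by their labels, 3 of IP-Svi-0 and 3 of Col-0, and are 6 of the 24 libraries in the series. The series set these accessions side by side at 10, 16, 23 and 27 °C to find genes linked to the early flowering of IP-Svi-0. The labels give the control genotype as Col-0 background and name no transgene or mutation in either accession. Both were raised from seed on half-strength medium, cold-stratified for 3 days and then moved to the growth room. RNA came from whole seedlings, so roots, leaves and shoot tips were mixed. Plants were harvested 12, 8 and 7 days after transfer at 16, 23 and 27 °C, so that temperature and age cannot be told apart. The labels do not say whether the 3 libraries of a group came from separate cultures, and p-values then measure only the spread between these libraries. IP-Svi-0 is a single natural accession, so a difference between the accessions is a difference between 2 genotypes.

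Plants that stay in the cold for weeks regrow their leaves in an acclimated state. Acclimated leaves are known to carry more enzymes of the Calvin cycle and of sucrose synthesis. They also accumulate protective proteins such as COR15A, which shields chloroplast membranes, and dehydrins, which keep other proteins soluble when cells lose water. The promoters of many of these protective genes carry the CRT/DRE element bound by the CBF factors, and natural accessions are known to differ in the strength of this response.

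Each 10 °C library held 355824 to 870567 counts at genes, which was 1.48 to 3.61% of its reads. Nuclear genes without an annotated exon on the other strand took 39.1 ± 4.35% of the nuclear counts of Col-0, and for IP-Svi-0 this share was 48.6 ± 4.69% (means ± SD over 3 libraries, n = 3; exact permutation test, two-sided p = 0.2, where 0.1 is the smallest possible). Reads assigned to no gene were 69.2 to 88.1% of the Col-0 libraries and 80.5 to 86.3% of the IP-Svi-0 libraries. Which strand was counted is unknown here, so counts at any gene may come from the strand opposite its transcript. At a gene with an overlap they may come from the gene on the other strand. The share of reads with more than 1 alignment was 26.5% in Col-0 replicate 2 and 2.67 to 10.4% in the other 5 libraries. The unaligned share was 0.364 to 0.419% for Col-0 libraries, against 1.36 to 1.83% for those of IP-Svi-0 (exact permutation test, two-sided p = 0.1, the smallest possible). Both accessions were mapped on the Col-0 reference, so a gene that is diverged or missing in IP-Svi-0 can read as lower. Markers of roots were present in both accessions, with a summed level of 594 to 644 CPM (counts scaled to an equal library size) in Col-0 and 625 to 733 CPM in IP-Svi-0 over 17 genes. Of 13 markers of flowers and inflorescences, 9 had no count in the 6 libraries, among them AP1 and LFY, and the summed level of the 13 was 0 to 9.30 CPM in each library.

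Of 10097 genes with enough counts to be tested, 968 (9.59%) were called higher and 1454 (14.4%) lower in IP-Svi-0 at an adjusted p under 0.05, together 24% of them. Without Col-0 replicate 2, Col-0 replicate 3 and IP-Svi-0 replicate 2 in turn, 631, 570 and 596 were higher and 1065, 1047 and 1037 lower. Differences below are log2 ratios of IP-Svi-0 over Col-0. These counts differed between genes with and without an overlapping gene on the other strand. Among 6345 genes without an overlap, 732 (11.5%) were higher and 558 (8.79%) lower, together 20.3%. Their median log2 difference was 0.18, against 0.019 for all tested genes. When those genes were scaled and fitted alone, 470 were higher and 732 lower. Small positive values near 0.18 are therefore within the shift that scaling makes. Among 3705 genes with an overlap, 236 were higher and 876 lower. Long non-coding RNAs were the extreme case, with 0 of 160 higher and 91 lower. The counts for the gene groups below are read against the 24% called over all tested genes. They are followed by the count in a fit that held the no-overlap share of each library as a covariate. In that fit 477 of all 10097 tested genes were higher and 577 lower, so the 24% is not the base for those counts. Of 199 named genes called at 10 °C, 69 lost the call with this covariate. Overlaps are noted below for some genes only, so a gene without such a note is not thereby free of one. Among those named without a note, HCEF1, GLU1, CAT2, LHCB4.2, SPS4F, P5CS2, SS2 and DIN10 also overlap a gene on the other strand. So do FLU, APR3, BES1, BZR1, DREB2A, HSP101, MBF1A and LKP2. Further cases are RPP13, AGL67, AT1G29220, AT1G29355, AT1G45165, AT1G62620, AT2G04380, AT2G09800, AT2G11240, AT5G53050 and AT5G55570, and others may not be listed.

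**Figure D1:**
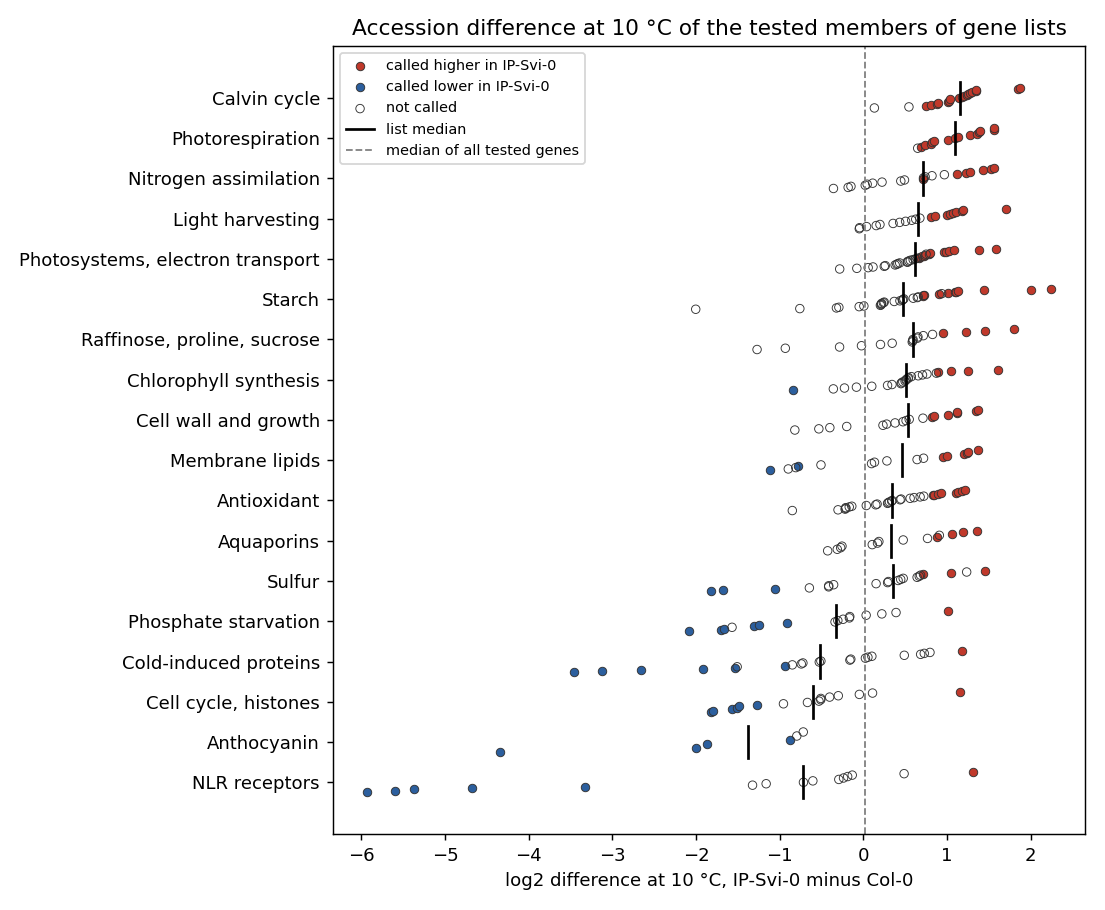
Accession difference at 10 °C for the tested members of the gene lists described in the text, 1 row for each list. The horizontal axis is the log2 difference of IP-Svi-0 minus Col-0 from the fit to all libraries, filled points passed an adjusted p of 0.05, open points did not, and black bars are list medians. Calvin cycle and photorespiration members lie almost all to the right, with medians of 1.16 and 1.09, and cold-induced proteins, cell cycle genes and anthocyanin genes have medians below 0.

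The enzymes of the Calvin cycle, which fix carbon dioxide in the chloroplast, were higher in IP-Svi-0 almost throughout. Of 20 tested members 18 were called higher and 0 lower, with a median log2 difference of 1.16, against 0.019 over all tested genes. Whole seedlings were used, so that more cells of a type and more RNA per cell cannot be told apart. Of the 15 members without an overlap 13 were higher. With the covariate 16 of the 20 were higher, and leaving out any 1 of the 6 libraries left 15 to 18. SBPASE and CP12-2 were the 2 members that were not called, with log2 differences of 0.54 (adjusted p = 0.119) and 0.13 (adjusted p = 0.754).

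RBCS1A encodes the most abundant small subunit of Rubisco, the enzyme that captures carbon dioxide. It had 5989, 3945 and 4816 CPM in Col-0 replicates 1 to 3 and 15771, 21649.7 and 15559.7 CPM in IP-Svi-0 replicates 1 to 3. The lowest IP-Svi-0 library was well above the highest Col-0 library (1.84 log2 units, SE 0.298, adjusted p = 1.35e-05). RBCS2B, a second small subunit, had 956, 1131 and 1056 CPM in Col-0 and 3388, 4326 and 3738 CPM in IP-Svi-0. The neighbouring copies RBCS1B and RBCS3B were higher as well, by 1.23 (adjusted p = 0.000368) and 1.04 (adjusted p = 0.00856) on the log2 scale. These copies are nearly identical, so the split of reads among them is uncertain. RCA, the activase that keeps Rubisco open, had 2963, 2269 and 2728 CPM in Col-0 and 5553, 6797 and 6036 CPM in IP-Svi-0 (1.21 log2 units, SE 0.27, adjusted p = 0.00106). It shares exon sequence with AT2G39725 on the other strand.

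Of the steps after carbon capture the called genes had smaller log2 differences than RBCS1A, and SBPASE and CP12-2, which were not called, belong here too. GAPA1, a subunit of the glyceraldehyde phosphate dehydrogenase that reduces the first product, had 666, 618 and 593 CPM in Col-0 and 1289.97, 1930.1 and 1541 CPM in IP-Svi-0 (1.34 log2 units, SE 0.26, adjusted p = 0.000245). GAPB, its partner subunit, differed by 1.297 and the second A subunit GAPA2 by 1.25. HCEF1, the chloroplast fructose bisphosphatase, had 590.2, 505 and 586 CPM in Col-0 and 1145, 1634 and 1514 CPM in IP-Svi-0, again without an overlap of the ranges (1.35 log2 units, SE 0.28, adjusted p = 0.000507). TKL1, a transketolase of the regeneration steps, differed by 1.27 (adjusted p = 0.000597), and PRK, which makes the acceptor of carbon dioxide, by 0.88 (adjusted p = 0.00829). The smallest called difference was that of CP12-1, a small inhibitor of the cycle (0.75 log2 units, SE 0.24, adjusted p = 0.0199).

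The promoter of RBCS2B is shown because both classes of light-response element that Rubisco genes are known for lie in it. The window covers the 250 bases before the RefSeq gene start in the TAIR10.1 assembly (chr5:15382072-15382321, minus strand), with I-box cores (GATAAG, either strand) and the G-box (CACGTG) in capitals.
RBCS2B: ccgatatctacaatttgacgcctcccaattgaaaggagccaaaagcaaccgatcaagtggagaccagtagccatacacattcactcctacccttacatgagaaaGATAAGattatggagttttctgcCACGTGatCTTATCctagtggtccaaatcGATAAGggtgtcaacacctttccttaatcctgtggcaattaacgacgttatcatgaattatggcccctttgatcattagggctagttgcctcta
The I-box core occurred 3 times, at 146, 115 and 94 bases before the start, and the G-box once, at 123 bases. Over 26711 promoters of the same length, 12.2% held GATAAG and 6.58% held CACGTG. Among the 18 Calvin cycle genes that were higher, 3 held each of the motifs, so that the pair was not shared by the group. A match is a run of letters and was not tested for binding.

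**Figure D2:**
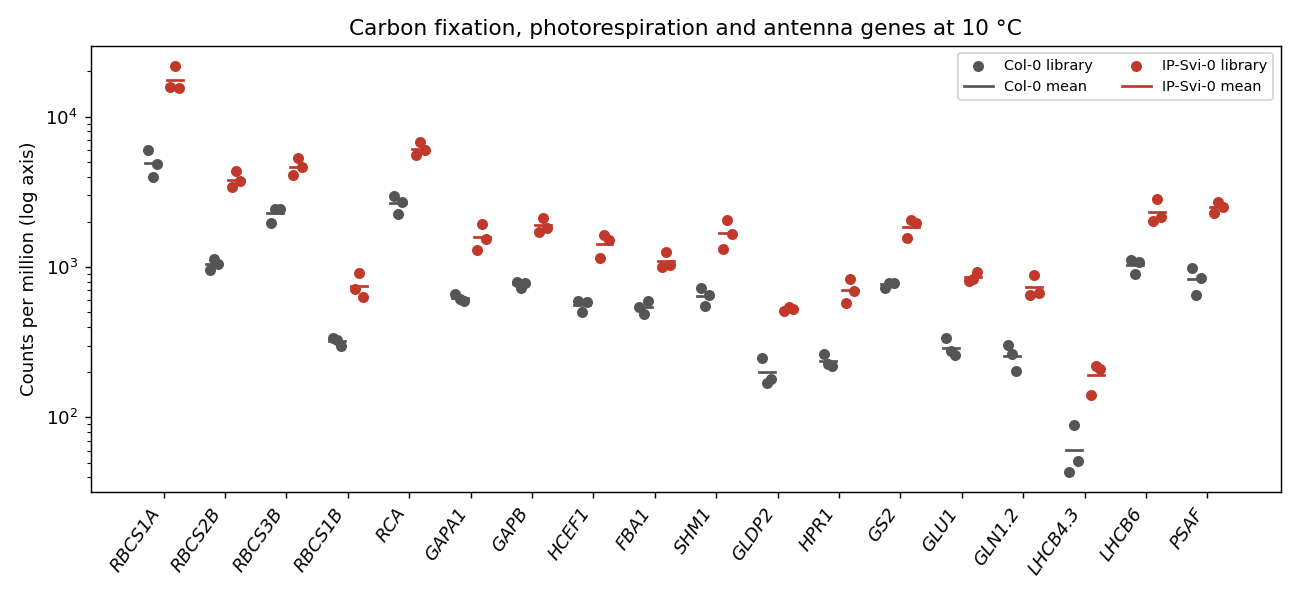
Scaled counts (CPM) on a log axis in each 10 °C library, for genes of the Calvin cycle, photorespiration, nitrogen assimilation and the antenna. Each point is 1 library, short bars are group means, grey is Col-0 and red is IP-Svi-0 (n = 3 each). In each of these genes the 3 red points lie above the 3 grey points, as for RBCS1A with 5989, 3945 and 4816 against 15771, 21649.7 and 15559.7 CPM.

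Photorespiration recycles the by-product that Rubisco makes when it binds oxygen, through the chloroplast, the peroxisome and the mitochondrion. Of 15 tested members 14 were higher and 0 lower (median log2 difference 1.09), including 10 of the 11 without an overlap. With the covariate 11 were higher. Without IP-Svi-0 replicate 2 the count was 9, and in the other leave-one-out fits it was 11 to 14. PGLP1 had no count and was not tested, and the glycine decarboxylase gene AT1G11860 was the tested member that was not called (0.65, adjusted p = 0.054). In the peroxisome, HPR1, the hydroxypyruvate reductase, had 265, 226 and 219 CPM in Col-0 and 576, 838 and 693 CPM in IP-Svi-0 (1.56 log2 units, SE 0.299, adjusted p = 0.000171). In the mitochondrion, SHM1, the serine hydroxymethyltransferase, had 721, 549 and 653 CPM in Col-0 and 1319, 2066 and 1667 CPM in IP-Svi-0 (1.39 log2 units, SE 0.28, adjusted p = 0.000347). The glycine decarboxylase subunits GLDP1 and GLDP2 differed by 1.36 and 1.39 (adjusted p = 0.000113 and 9.80e-05). Glycolate oxidase genes, which form the peroxide of the pathway, differed less, GOX1 by 0.81 and GOX2 by 1.09. CAT2, the catalase that removes this peroxide, had 245, 209.98 and 226 CPM in Col-0 and 419, 542 and 539.6 CPM in IP-Svi-0 (1.13 log2 units, SE 0.24, adjusted p = 0.000631).

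Ammonium released by photorespiration is taken up again by glutamine synthetase and glutamate synthase, and part of these genes were higher as well. GS2, the chloroplast glutamine synthetase, had 731, 783 and 784 CPM in Col-0 and 1560.1, 2049 and 1966 CPM in IP-Svi-0 (1.28 log2 units, SE 0.25, adjusted p = 0.00028). GLU1, the ferredoxin-dependent glutamate synthase, had 337, 275 and 258 CPM and 811, 829.6 and 926 CPM (1.56 log2 units, SE 0.27, adjusted p = 5.05e-05). GLN1.2, a cytosolic glutamine synthetase, had 305, 262 and 202 CPM and 653, 888 and 675 CPM (1.52 log2 units, SE 0.25, adjusted p = 1.30e-05). In all 3 genes every IP-Svi-0 library was above every Col-0 library. In the wider list of nitrogen assimilation, which also holds GS2 and GLU1, 7 of 20 tested members were higher and 0 lower (median 0.72), and 3 were higher with the covariate. They included the nitrate reductase NIA1 (1.12, adjusted p = 0.0097), the nitrite reductase NIR1 (0.72, adjusted p = 0.0384) and NRT1.7, which loads nitrate into the phloem of old leaves (1.43, adjusted p = 0.00453; 0.0918 with the covariate).

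Antenna proteins collect light for the photosystems. Of 20 tested members 9 were higher and 0 lower, with a median of 0.65, and 5 of the 12 without an overlap were among the higher ones. With the covariate 6 were higher, and in the leave-one-out fits 6 to 10. The higher members were LHCA3, LHCA4 and LHCA6 of photosystem I, the minor antenna LHCB4.1, LHCB4.2, LHCB4.3, LHCB5 and LHCB6 of photosystem II, and 1 of 5 genes of the major antenna LHCB1. LHCB4.3, an antenna subunit known for its rise in strong light, had 43.6, 88.8 and 51.2 CPM in Col-0 and 142, 221 and 209.6 CPM in IP-Svi-0 (1.71 log2 units, SE 0.28, adjusted p = 1.53e-05). LHCB6 had 1118, 892 and 1084 CPM and 2038, 2838 and 2139 CPM (1.18 log2 units, SE 0.26, adjusted p = 0.000837). In contrast, LHCB2.1, LHCB2.2 and LHCB2.3 had log2 differences of 0.037, 0.197 and -0.045, and none was called. LHCB1 genes are near-identical neighbours whose reads may be split, and LHCB1.5 (0.998) also shares exon sequence with AT2G08665.

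Of the subunits of the photosystems and of electron transport, 13 of 31 were higher and 0 lower, with a median of 0.62. The higher count was 7 with the covariate, 7 without any 1 of the Col-0 libraries, and 8, 5 and 14 without IP-Svi-0 replicates 1, 2 and 3. PSAF, which docks plastocyanin at photosystem I, had 991, 654 and 844 CPM in Col-0 and 2279, 2723 and 2494 CPM in IP-Svi-0 (1.59 log2 units, SE 0.28, adjusted p = 4.35e-05). FD1, a leaf ferredoxin, had 48.6, 80.8 and 51.2 CPM and 144, 157 and 153 CPM (1.38 log2 units, SE 0.31, adjusted p = 0.00102). PSBS, the sensor that turns excess light into heat, differed by 1.08 (adjusted p = 0.0015). Of 24 genes of chlorophyll synthesis 4 were higher and 1 lower (20.8% called, below the 24% of all tested genes), and 2 and 0 with the covariate. GSA2, which forms the precursor of all tetrapyrroles, had 149, 52.5 and 58.1 CPM in Col-0 and 283, 273 and 278 CPM in IP-Svi-0, with Col-0 replicate 1 above the other 2 (1.61 log2 units, SE 0.296, adjusted p = 9.98e-05). GLK1, a factor that switches on antenna and chlorophyll genes, had 88.9, 72.7 and 114 CPM and 200.2, 220.1 and 246 CPM (1.25 log2 units, SE 0.28, adjusted p = 0.00119). FLU, which restrains chlorophyll synthesis in the dark, was the lower one (-0.84 log2 units, SE 0.28, adjusted p = 0.0248), and it was not called with the covariate, where its log2 difference was -0.54.

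Genes that turn fixed carbon into starch and sugar were higher in part. For starch 10 of 32 tested members were higher and 0 lower, with a median of 0.48, and 4 were higher with the covariate and 6 without Col-0 replicate 2. Both synthesis and breakdown were among them. SS2, a starch synthase, had 10.1, 16.2 and 11.6 CPM in Col-0 and 41.7, 45.96 and 60.2 CPM in IP-Svi-0 (2.01 log2 units, SE 0.39, adjusted p = 0.000222). LSF1, a phosphatase-like regulator of starch breakdown at night, had 10.1, 12.1 and 4.65 CPM and 41.7, 30.2 and 56.3 CPM (2.24 log2 units, SE 0.45, adjusted p = 0.000277). SEX1, the glucan water dikinase that opens the granule, differed by 1.01 (adjusted p = 0.00401), and the cold-linked beta-amylase BAM3 had 532, 501 and 612 CPM in Col-0 and 929, 1312 and 1296 CPM in IP-Svi-0. Counts at BAM3 may include reads of AT4G06665, a non-coding RNA opposite it.

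Among genes for compatible solutes and sucrose, 4 of 17 were higher and 0 lower (median 0.59; 23.5% called, near the 24% of all tested genes). Of the 11 members without an overlap 1 was higher, and with genes without an overlap fitted alone 0 were higher and 1 lower. The higher count was 1 with the covariate and 2 without Col-0 replicate 2, Col-0 replicate 3 or IP-Svi-0 replicate 2. SPS4F, a leaf sucrose phosphate synthase, had 171, 157 and 165 CPM in Col-0 and 418, 486 and 454 CPM in IP-Svi-0 (1.46 log2 units, SE 0.25, adjusted p = 4.59e-05). P5CS2, an enzyme of proline synthesis, differed by 1.23 (adjusted p = 0.00628; 0.175 with the covariate). DIN10, annotated as a raffinose synthase family protein and known as a gene switched on in darkness and sugar shortage, had 15.1, 0 and 2.33 CPM in Col-0 and 93.9, 119 and 105 CPM in IP-Svi-0 (3.76 log2 units, SE 0.57, adjusted p = 4.00e-06). Its Col-0 libraries held 15.1 CPM or less, and every IP-Svi-0 library was above 90 CPM. Of 11 tested genes of senescence and sugar starvation, DIN10 included, 2 were higher and 4 lower (median -0.017), and 2 and 2 with the covariate. NYC1, a chlorophyll b reductase of senescing leaves, was the other higher member (1.23, adjusted p = 0.00353). WRKY53, an early regulator of leaf senescence, had 600.2, 832 and 769.8 CPM in Col-0 and 204, 173 and 281 CPM in IP-Svi-0 (-1.74 log2 units, SE 0.34, adjusted p = 0.000184). BCAT2 and IVD, enzymes that break down branched amino acids, differed by -1.67 and -1.32, and with the covariate by -0.52 and -0.59 with neither called. WRKY53 and BCAT2 each share exon sequence with a gene on the other strand.

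The protective cold-induced proteins went the other way. Of 22 tested members 6 were lower and 1 higher in IP-Svi-0, with a median of -0.52. The count of lower members was 6 in each leave-one-out fit, 7 with the covariate and 5 with a fold threshold of 1.5. Summed over the list, the level was 5033 to 5435 CPM in Col-0 and 2593 to 2999 CPM in IP-Svi-0. The lower members were both members of the COR15 pair, both members of the KIN pair and the dehydrins XERO2 and ERD10.

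KIN1 and KIN2 encode small hydrophilic proteins of cold and drought. KIN1 had 449, 513 and 530.2 CPM in Col-0 and 64.7, 32.7 and 34.9 CPM in IP-Svi-0, and KIN2 had 461, 533 and 660.5 CPM and 55.3, 66.5 and 67.9 CPM. They are near-identical neighbours, so the split of their reads is uncertain, while both were lower by a similar amount. COR15A had 644, 1131 and 907 CPM in Col-0 and 129, 127 and 169 CPM in IP-Svi-0 (-2.66 log2 units, SE 0.32, adjusted p = 4.59e-08). Its neighbour COR15B had 262, 419.96 and 298 CPM and 116, 89.5 and 130.04 CPM (-1.53 log2 units, SE 0.31, adjusted p = 0.000328), and part of it overlaps AT2G42520 on the other strand. In each of these 4 genes every Col-0 library was above every IP-Svi-0 library.

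XERO2 had 168, 162 and 193 CPM in Col-0 and 58.4, 31.4 and 48.5 CPM in IP-Svi-0 (-1.91 log2 units, SE 0.31, adjusted p = 1.23e-05), and ERD10 had 478, 561 and 565 CPM and 293, 237 and 309 CPM (-0.93 log2 units, SE 0.24, adjusted p = 0.00349). The dehydrins COR47 and ERD14 had log2 differences of -0.53 and -0.51 (adjusted p = 0.102 and 0.13), with all 3 IP-Svi-0 libraries below Col-0 but without a call. RD29A, another cold and drought protein, had -0.72 (adjusted p = 0.115) with overlapping ranges. COR413-PM1, COR413IM1, GRP7 and GRP8, which encode membrane proteins and glycine-rich RNA-binding proteins, had log2 differences of -0.15, 0.053, 0.10 and 0.023, and their ranges overlapped. The remaining tested members, RD29B, COR27, AT4G33980, ERD7, LEA14, CSP3, CSDP1 and GRP2, ranged from -1.51 to 0.79 and none was called. SFR2, the galactolipid enzyme that protects chloroplast membranes from freezing, was the higher member, with 48.6, 40.4 and 37.2 CPM in Col-0 and 80.3, 111 and 98.98 CPM in IP-Svi-0 (1.17 log2 units, SE 0.28, adjusted p = 0.00192). COR413IM2, LTP3, LTP4 and ESK1 had too few counts to be tested.

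**Figure D3:**
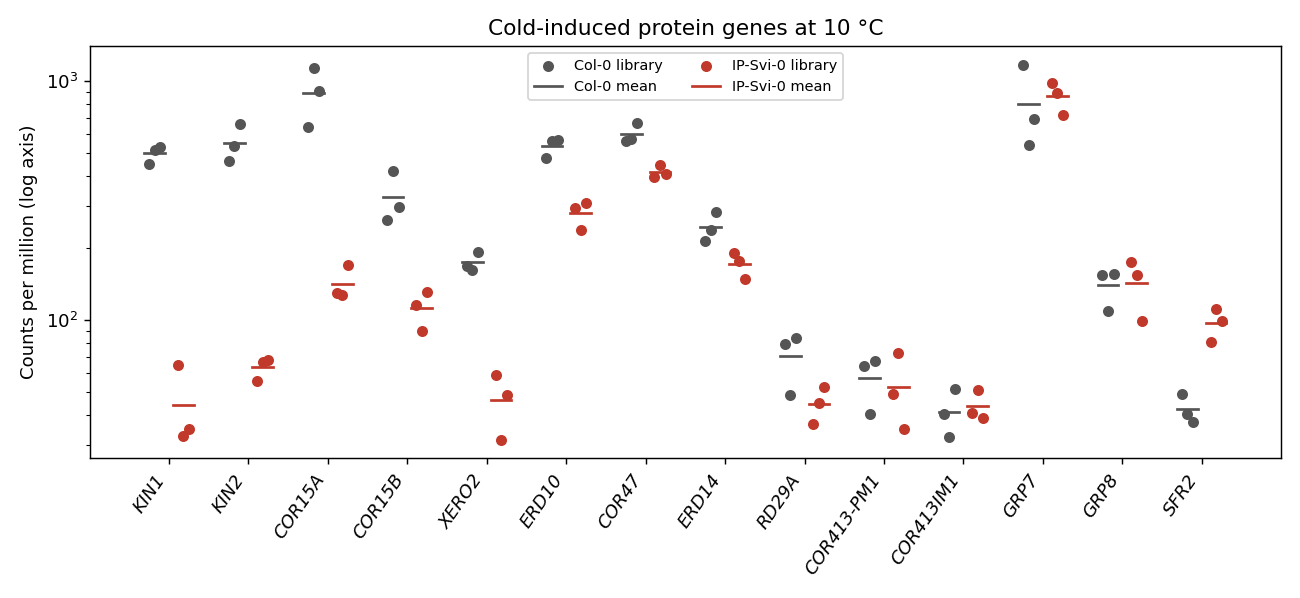
Scaled counts (CPM) on a log axis in each 10 °C library for 14 cold-induced genes. Each point is 1 library, short bars are group means, grey is Col-0 and red is IP-Svi-0 (n = 3 each). From KIN1 to ERD10 the grey points lie above the red ones, RD29A to GRP8 overlap, and SFR2 is the reverse, with 48.6, 40.4 and 37.2 against 80.3, 111 and 98.98 CPM.

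The promoters of KIN1, KIN2 and COR15A are shown because these genes had the largest differences of the list and the CRT/DRE core is the element cold induction is known for. Each window is the 250 bases before the RefSeq gene start in TAIR10.1, at chr5:5209467-5209716 and chr5:5211469-5211718 on the plus strand and chr2:17712331-17712580 on the minus strand. Capitals mark the CRT/DRE core (CCGAC) and the core of the abscisic acid response element (ACGTG, which is also part of CACGTG), on either strand.
KIN1: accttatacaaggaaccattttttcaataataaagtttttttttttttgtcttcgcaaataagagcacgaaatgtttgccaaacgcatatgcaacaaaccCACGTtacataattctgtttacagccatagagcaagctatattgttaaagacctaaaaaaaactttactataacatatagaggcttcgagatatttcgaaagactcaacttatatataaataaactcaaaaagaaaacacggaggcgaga
KIN2: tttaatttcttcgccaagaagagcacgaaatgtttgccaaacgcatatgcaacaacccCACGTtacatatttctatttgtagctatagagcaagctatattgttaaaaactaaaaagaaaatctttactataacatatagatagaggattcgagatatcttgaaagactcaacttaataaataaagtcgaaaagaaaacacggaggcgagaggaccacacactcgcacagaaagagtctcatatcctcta
COR15A: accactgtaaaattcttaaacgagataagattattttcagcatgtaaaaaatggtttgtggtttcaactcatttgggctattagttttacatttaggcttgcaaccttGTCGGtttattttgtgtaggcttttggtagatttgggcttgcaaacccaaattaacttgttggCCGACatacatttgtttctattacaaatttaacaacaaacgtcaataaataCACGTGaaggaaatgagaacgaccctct
COR15A held the CRT/DRE core 2 times, at 142 and 79 bases before the start. The KIN1 and KIN2 windows held none, and each held ACGTG once, at 150 and 192 bases. Over all 26711 promoters 11.9% held CCGAC and 23.1% held ACGTG. Among tested cold-induced genes CCGAC was in 2 of the 6 lower members and in 4 of the 15 that were not called, and it was also in the promoter of SFR2. These windows are those of Col-0, and the IP-Svi-0 sequence was not analysed here.

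The CBF factors, which switch on these genes, were too low to compare. CBF1, CBF2 and CBF3 had 0, 1 and 4 counts over the Col-0 libraries and 0 counts each over the IP-Svi-0 libraries. Of 10 tested cold signalling genes 1 was called (10%, below the 24% of all tested genes), with and without the covariate. This was the kinase OST1, which stabilises the CBF activator ICE1. It had 3.35, 24.2 and 11.6 CPM in Col-0 and 28.2, 32.7 and 42.7 CPM in IP-Svi-0 (1.65 log2 units, SE 0.46, adjusted p = 0.00708). Col-0 replicate 2 was close to the lowest IP-Svi-0 library, and without Col-0 replicate 1 the call was lost. ICE1 itself had a log2 difference of 0.54 (adjusted p = 0.339).

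Membrane lipid genes were split. Of 16 tested members 6 were higher and 2 lower (median 0.46), and 1 was higher and 0 lower with the covariate. FAD7, which makes trienoic fatty acids in the chloroplast, had 70.4, 92.9 and 62.8 CPM in Col-0 and 159.6, 207 and 161 CPM in IP-Svi-0 and was the one called with the covariate (1.25 log2 units, SE 0.25, adjusted p = 0.000347). FAB2 and FAD5, other chloroplast desaturases, differed by 1.37 and 1.24, and MGD1, which makes the main galactolipid, by 1.202. ADS2, a desaturase known from work on freezing and chilling tolerance, had 159, 189.8 and 167 CPM and 124, 89.5 and 81.5 CPM (-0.78 log2 units, SE 0.25, adjusted p = 0.0216). For the cuticle 3 of 15 genes were higher and 1 lower (26.7% called, near the 24% of all tested genes), 2 and 0 with the covariate, and 5 were higher without IP-Svi-0 replicate 1. CER5, a wax transporter, differed by 1.51 (adjusted p = 0.00741), and by 1.14 with the covariate, where it was not called (adjusted p = 0.156).

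Part of the cell division genes were lower in IP-Svi-0. Of 16 tested members 6 were lower and 1 higher (median -0.600), with 5 to 6 lower in the leave-one-out fits and 4 with the covariate. Of these, 3 encode histones. H3.1, a replication histone, had 283, 481 and 314 CPM in Col-0 and 163, 112 and 95.1 CPM in IP-Svi-0 (-1.51 log2 units, SE 0.32, adjusted p = 0.000531; adjusted p = 0.057 with the covariate). HTB1, a histone H2B, had 203, 343 and 239.5 CPM and 100.1, 100.4 and 122 CPM (-1.27 log2 units, SE 0.25, adjusted p = 0.000254). HTA11, a histone H2A.Z, differed by -1.58 (adjusted p = 0.00306). MCM3, a subunit of the replicative helicase, had 57.01, 96.9 and 100 CPM in Col-0 and 19.8, 19.3 and 34.9 CPM in IP-Svi-0 (-1.79 log2 units, SE 0.34, adjusted p = 0.000127), and its partner MCM7 differed by -1.49 (adjusted p = 0.00664). CYCD3.1, a cyclin that drives cells into division, differed by -1.82 (adjusted p = 0.00255; 0.104 with the covariate). CDKB2.1, a mitotic kinase, was the higher member (1.16 log2 units, SE 0.35, adjusted p = 0.0142). It shares 44 bases of exon with AT1G76530 on the other strand. AT1G76530 had 0 counts over the Col-0 libraries and 16.7, 13.3 and 31.1 CPM in IP-Svi-0, so counts at CDKB2.1 may include its reads.

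Part of the cell expansion genes were higher. Of 18 tested cell wall genes 7 were higher and 0 lower (median 0.53), and 2 were higher with the covariate and 3 without Col-0 replicate 3 or IP-Svi-0 replicate 2. EXPA8, an expansin that loosens walls, had 25.1, 24.2 and 18.6 CPM in Col-0 and 52.1, 52.00 and 75.7 CPM in IP-Svi-0 (1.37 log2 units, SE 0.35, adjusted p = 0.00403). EXPA3 differed by 1.35, the xyloglucan enzyme XTH31 by 1.12 and the cellulose synthase CESA1 by 1.01. Of 14 aquaporins, the water channels of membranes, 4 were higher and 0 lower (28.6% called, near the 24% of all tested genes). With the covariate 2 were higher. PIP1.5 was among the 4, with 43.6, 44.4 and 27.9 CPM in Col-0 and 75.1, 115 and 107 CPM in IP-Svi-0 (1.35 log2 units, SE 0.34, adjusted p = 0.00325). Few ribosomal proteins were called in the main fit. Of 263 tested, 16 were higher and 19 lower (13.3% called, against 24% of all tested genes), and the median was -0.11. With the covariate 6 were higher and 28 lower, beside 477 and 577 of all 10097 tested genes. The share called was thus not below that of all tested genes in that fit. The higher count was 10, 6 and 9 without Col-0 replicate 2, Col-0 replicate 3 and IP-Svi-0 replicate 2 and 24 without Col-0 replicate 1, and 11 were lower without IP-Svi-0 replicate 2.

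Nutrient genes differed by subgroup. For phosphate shortage 6 of 16 tested members were lower and 1 higher, but the levels in Col-0 were uneven. SPX1, a phosphate sensor, had 38.6, 44.4 and 135 CPM in Col-0 and 31.3, 29.02 and 27.2 CPM in IP-Svi-0 (-1.31 log2 units, SE 0.36, adjusted p = 0.00664). MGD3, a lipid enzyme that spares phosphate, had 20.1, 40.4 and 86.05 CPM and 15.6, 7.26 and 9.7 CPM (-2.08 log2 units, SE 0.46, adjusted p = 0.000909). Col-0 replicate 3 was the highest library for both genes, and without it 1 member was lower. With the covariate 1 was lower too, the non-coding RNA gene AT4, which had 68.7, 113 and 181 CPM in Col-0 and 50.1, 26.6 and 34.9 CPM in IP-Svi-0.

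Sulfur genes were called both ways. Of 20 tested members 3 were higher and 3 lower (30% called, against 24% of all tested genes), and 1 and 3 with the covariate. SULTR1.2, the main root importer of sulfate, had 149, 250.4 and 221 CPM in Col-0 and 54.2, 55.6 and 64.05 CPM in IP-Svi-0 (-1.82 log2 units, SE 0.32, adjusted p = 4.87e-05). LSU1, a marker of sulfur shortage, had 46.9, 68.6 and 76.7 CPM and 15.6, 26.6 and 15.5 CPM (-1.68 log2 units, SE 0.35, adjusted p = 0.000453), and the reductase APR3 was lower by the test as well (-1.06 log2 units, SE 0.28, adjusted p = 0.00491). All 3 were also called in each leave-one-out fit. SIR, the sulfite reductase, APS1, the ATP sulfurylase, and SULTR4.1, which releases sulfate from the vacuole, were higher, by 1.046, 0.71 and 1.45. Of these 3, 1 (SIR) was called with the covariate, and 1 of the list was higher without Col-0 replicate 3 or IP-Svi-0 replicate 1. For iron 2 of 9 tested members were higher and 0 lower (22.2% called, near the 24% of all tested genes). The 2 were OPT3, an iron transporter of the phloem (1.28 log2 units, SE 0.36, adjusted p = 0.00782), and AT2G30766, a gene without a symbol opposite CYP71A13 (2.34 log2 units, SE 0.56, adjusted p = 0.00221). With the covariate 1 was higher, and 4 were without IP-Svi-0 replicate 3. OPT3 was not called with the covariate (0.97, adjusted p = 0.137), nor without Col-0 replicate 3 or IP-Svi-0 replicate 2.

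**Figure D4:**
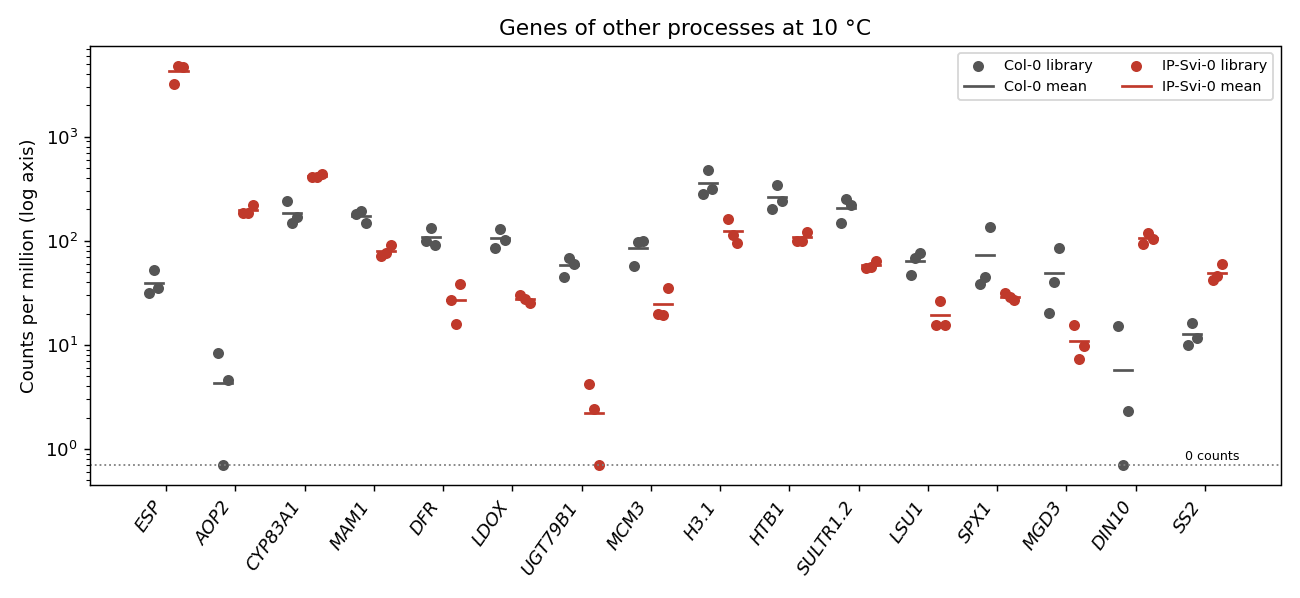
Scaled counts (CPM) on a log axis in each 10 °C library for genes of glucosinolates, anthocyanin, cell division, sulfur, phosphate, sugar starvation and starch. Each point is 1 library, short bars are group means, grey is Col-0 and red is IP-Svi-0 (n = 3 each), and points on the dotted line had 0 counts. ESP, AOP2 and DIN10 are far higher in IP-Svi-0, UGT79B1 is far lower, and for SPX1 and MGD3 1 grey point lies above the other 2.

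Glucosinolates are the defence compounds of this plant family. The largest differences were in 2 genes that are known to vary between accessions. ESP, which steers glucosinolate breakdown towards nitriles, had 31.9, 52.5 and 34.9 CPM in Col-0 and 3228, 4782 and 4710.4 CPM in IP-Svi-0 (6.78 log2 units, SE 0.66, adjusted p = 3.51e-10). AOP2, which makes alkenyl side chains and is annotated as a transcribed pseudogene in the reference, had 8.38, 0 and 4.65 CPM and 184, 185 and 221 CPM (5.13 log2 units, SE 0.44, adjusted p = 8.90e-12). At 16, 23 and 27 °C the differences were 3.99, 5.34 and 5.47 for AOP2 and 4.21, 6.74 and 6.56 for ESP, each past the threshold. The rest of the aliphatic pathway was mixed, with 4 of 21 members higher and 1 lower, AOP2 included (23.8% called, near the 24% of all tested genes). The counts were 2 and 1 with the covariate and also without Col-0 replicate 3. CYP83A1, a core step, had 241, 149 and 169.8 CPM in Col-0 and 407, 409.97 and 437 CPM in IP-Svi-0 (1.14 log2 units, SE 0.25, adjusted p = 0.000718), whereas MAM1, which lengthens the side chain, had 179, 194 and 149 CPM and 70.9, 76.2 and 91.2 CPM (-1.13 log2 units, SE 0.25, adjusted p = 0.000963).

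For indole glucosinolates 3 of 13 tested members were higher and 2 lower, and 1 and 1 with the covariate. Leaving out Col-0 replicate 2, IP-Svi-0 replicate 1 or IP-Svi-0 replicate 2 also gave 1 and 1, and without Col-0 replicate 3 the counts were 2 and 1. UGT74B1, which adds the sugar, had 25.1, 12.1 and 16.3 CPM in Col-0 and 35.5, 36.3 and 46.6 CPM in IP-Svi-0 (1.01 log2 units, SE 0.37, adjusted p = 0.0436), and this call was lost with the covariate (adjusted p = 0.207). IGMT1, a methyltransferase of the last steps, had 0 counts over the Col-0 libraries and 21 over the IP-Svi-0 libraries. CYP81F4, which modifies the indole ring, had 102, 76.7 and 65.1 CPM in Col-0 and 13.6, 15.7 and 13.6 CPM in IP-Svi-0 (-2.51 log2 units, SE 0.31, adjusted p = 7.02e-08). AT4G37409 lies opposite nearly the whole of CYP81F4 and had 5501, 7179.7 and 4695 CPM in Col-0 and 517, 462 and 807 CPM in IP-Svi-0, so counts at CYP81F4 cannot be assigned to its own strand. Of 16 tested genes of glucosinolate breakdown 4 were higher and 2 lower, and 2 and 0 with the covariate. With 1 library left out, 1 to 4 were higher, with 1 without IP-Svi-0 replicate 2 and 2 without Col-0 replicate 3. Of the lower ones 0 were left without Col-0 replicate 3, IP-Svi-0 replicate 2 or IP-Svi-0 replicate 3, and 1 without Col-0 replicate 1 or 2. NIT1, a nitrilase of this group, differed by 0.88 (adjusted p = 0.01).

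Late anthocyanin genes, which make the purple pigment of cold leaves, were lower. Of 6 tested members 4 were lower and 0 higher (median -1.37), and 3 were lower with the covariate. DFR, the first enzyme of the branch, had 98.9, 133 and 90.7 CPM in Col-0 and 27.1, 15.7 and 38.8 CPM in IP-Svi-0 (-1.999 log2 units, SE 0.41, adjusted p = 0.000466). LDOX, the next enzyme, had 85.5, 129 and 102 CPM and 30.2, 27.8 and 25.2 CPM (-1.87 log2 units, SE 0.33, adjusted p = 4.26e-05). UGT79B1, which adds xylose to the pigment, had 45.3, 68.6 and 60.5 CPM in Col-0 and 4.17, 2.42 and 0 CPM in IP-Svi-0 (-4.34 log2 units, SE 0.497, adjusted p = 2.10e-08). AT4G14090, annotated as an anthocyanidin 5-O-glucosyltransferase, was called lower (-0.87 log2 units, SE 0.302, adjusted p = 0.031), but its library ranges overlapped and its difference was 0.013 with the covariate. AT4G14100 lies opposite this gene and was lower too (-1.78, adjusted p = 3.23e-05). Of 22 tested genes of the early phenylpropanoid steps 4 were higher and 0 lower (fewer than the 24% of all tested genes), with 2 higher under the covariate. Without Col-0 replicate 2 the counts were 1 and 1, 1 was higher without IP-Svi-0 replicate 2, and 2 were without Col-0 replicate 3. The higher ones included PAL2, the entry enzyme, with 90.5, 52.5 and 79.1 CPM in Col-0 and 133, 134 and 171 CPM in IP-Svi-0 (0.93 log2 units, SE 0.24, adjusted p = 0.004).

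Detoxification of oxygen species was higher in part. Of 29 tested antioxidant genes 8 were higher and 0 lower (median 0.34). The share called was 27.6%, near the 24% of all tested genes, of which 9.59% were higher. The higher count was 2 under the covariate, 4 without Col-0 replicate 3 or IP-Svi-0 replicate 2, and 5 without Col-0 replicate 2. Beside CAT2 the higher genes included SAPX, a chloroplast ascorbate peroxidase (1.22 log2 units, SE 0.25, adjusted p = 0.000498), MDAR1, which recycles ascorbate (0.83), and VTC2, which controls ascorbate synthesis (0.92, adjusted p = 0.00615). Of 24 glutathione transferases 7 were higher and 2 lower, and 4 and 1 with the covariate. Without Col-0 replicate 2, Col-0 replicate 3 or IP-Svi-0 replicate 2 also 4 were higher. GSTU26 had 11.7, 8.08 and 23.3 CPM in Col-0 and 77.2, 103 and 69.9 CPM in IP-Svi-0 (2.48 log2 units, SE 0.37, adjusted p = 3.84e-06). GSTF6, a transferase linked to defence, had 41.9, 28.3 and 48.8 CPM and 13.6, 9.67 and 1.94 CPM (-2.11 log2 units, SE 0.42, adjusted p = 0.000281).

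Immune receptors of the NLR class were lower in part. Of 15 tested members 5 were lower and 1 higher, and 5 or 6 were lower in the leave-one-out fits and 5 with the covariate, where 0 were higher. The higher member was RPP13 (1.31, adjusted p = 0.0466; 0.231 with the covariate), and without any 1 library other than Col-0 replicate 1 it was not called. SNC1 had 26.8, 24.2 and 30.2 CPM in Col-0 and 2.09, 0 and 0 CPM in IP-Svi-0 (-4.68 log2 units, SE 0.71, adjusted p = 5.58e-06), and RLM3, a resistance gene of the same region of the genome, had 63.7, 68.6 and 69.8 CPM and 8.34, 4.84 and 5.82 CPM (-3.33 log2 units, SE 0.38, adjusted p = 1.48e-08). AT4G19500 and AT4G19510, neighbouring genes of the list, had 13 and 11 counts over the Col-0 libraries and 0 over the IP-Svi-0 libraries. NLR genes are known to differ in sequence between accessions, and reads of diverged copies may not align. EDS5, the transporter of salicylic acid precursors, had 194, 222 and 230.2 CPM in Col-0 and 60.5, 70.1 and 81.5 CPM in IP-Svi-0 (-1.61 log2 units, SE 0.28, adjusted p = 4.23e-05) and shares exon sequence with AT4G39040, which was lower as well (-1.32). Of 18 tested jasmonate genes 16.7% were called, below the 24% of all tested genes. AOS was higher (1.29 log2 units, SE 0.29, adjusted p = 0.00137) and the cyclases AOC2 and AOC4 were lower (-1.22 and -1.91). With the covariate 1 was higher and 1 lower, and AOC4 was not called (-1.051, adjusted p = 0.225).

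Hormone and heat lists differed in their share of calls. For abscisic acid 1 of 17 tested members was called (5.88%), ABA1, an enzyme of its synthesis (0.84, adjusted p = 0.0266; 0.222 with the covariate). Of 10 tested gibberellin, auxin and growth genes 1 was higher and 2 lower, and 1 and 0 with the covariate. BES1 and BZR1, paired factors of brassinosteroid signalling, differed by 0.86 and -0.97 (adjusted p = 0.029 and 0.0333; 0.249 and 0.787 with the covariate), and neither was called without Col-0 replicate 2 or IP-Svi-0 replicate 2. GAI, a DELLA repressor of growth, had 55.3, 92.9 and 153 CPM in Col-0 and 31.3, 33.9 and 36.9 CPM in IP-Svi-0 (-1.55 log2 units, SE 0.34, adjusted p = 0.000909). Col-0 replicate 3 was the highest, and the call was lost without it and with the covariate. For heat 1 of 17 tested members was higher and 3 lower (23.5% called), and 1 and 1 with the covariate. Without Col-0 replicate 2 or IP-Svi-0 replicate 2 also 1 was lower. MBF1C, a coactivator of heat responses, had 419, 739 and 605 CPM and 8.34, 10.9 and 21.3 CPM (-5.51 log2 units, SE 0.38, adjusted p = 4.14e-14), and AT3G04685 lies opposite part of it. HSP101, the disaggregase, differed by -1.13 (adjusted p = 0.0142; 0.487 with the covariate). MBF1A, a relative of MBF1C, was the other lower member (-0.79, adjusted p = 0.0342; 0.883 with the covariate). DREB2A, a factor of heat and drought responses, was the higher one, by 2.57 (adjusted p = 0.00571) and by 3.36 with the covariate (adjusted p = 0.000723). Of 11 clock genes 2 were higher, the photoreceptors ZTL (1.81, adjusted p = 0.00198) and LKP2 (1.43, adjusted p = 0.0408), and 1 with the covariate.

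Large gene families held calls both ways. Of 80 cytochrome P450 genes 10 were higher and 17 lower (33.8% called), of 38 UDP-glycosyltransferases 4 and 7 (28.9%), and of 22 WRKY factors 1 and 6 (31.8%), against 24% of all tested genes. With the covariate the counts were 8 and 6, 2 and 3, and 0 and 2. For the P450 genes 6 were higher without Col-0 replicate 2, Col-0 replicate 3 or IP-Svi-0 replicate 2, and 11 and 9 were lower without Col-0 replicate 3 and IP-Svi-0 replicate 1. For the glycosyltransferases 2, 0, 1 and 1 were higher without Col-0 replicates 2 and 3 and IP-Svi-0 replicates 2 and 3, and 4 were lower without IP-Svi-0 replicate 1. CYP705A5, of a triterpene gene cluster, UGT76E12 and WRKY41 had 41, 189 and 126 counts over the Col-0 libraries and 0 counts over the IP-Svi-0 libraries, with an overlapping gene opposite the last 2. CYP708A2, from the same cluster, had 13.4, 28.3 and 37.2 CPM in Col-0 and 91.8, 126 and 113 CPM in IP-Svi-0 (2.12 log2 units, SE 0.37, adjusted p = 4.88e-05).

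Some genes had counts in 1 accession alone at 10 °C. At 10 °C 210 genes had counts in all 3 Col-0 libraries and 0 in all 3 IP-Svi-0 libraries, and 111 of them also had 0 in the other 9 IP-Svi-0 libraries. The reverse held for 241 genes, of which 44 had 0 in all 12 Col-0 libraries. The 10 °C libraries held 355824 to 630185 counts in Col-0 and 587720 to 870567 in IP-Svi-0, so a 0 is less strict in Col-0. AT5G49440, a protein-coding gene without a symbol at chr5:20048239-20049776, had 3082, 2895 and 2569.8 CPM in Col-0 and no count in IP-Svi-0 at 10 °C, at least 2185-fold lower against a floor of 3 counts over the group. Over all 12 IP-Svi-0 libraries it had 15 counts. AT4G32230, another protein-coding gene without a symbol, at chr4:15565295-15566971, had 0 in Col-0 and 40.7, 35.1 and 34.9 CPM in IP-Svi-0 at 10 °C, at least 15.7-fold higher. Over all 12 Col-0 libraries it had 4 counts. The other 8 genes with most counts were AT2G11240, AT2G04380, AT1G69140 and AT1G29355, present in Col-0, and the pseudogenes AT2G12040, AT3G44035, AT3G43350 and AT1G37057, present in IP-Svi-0. Positions are those of TAIR10.1.

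Among genes with at least 1 CPM in each accession, the 10 largest differences in each direction were named by their size. Next to ESP and AOP2 among the higher ones stood HEI10, a crossover protein of meiosis, with 13.4, 12.1 and 6.98 CPM in Col-0 and 323, 309.6 and 353 CPM in IP-Svi-0 (4.88 log2 units, SE 0.44, adjusted p = 4.97e-11), and it overlaps MRD1 on the other strand. PIRL6, a leucine-rich repeat protein, had 1.68, 8.08 and 13.95 CPM and 74.04, 77.4 and 128 CPM (3.63 log2 units, SE 0.48, adjusted p = 3.23e-07) and overlaps AT2G19340. Other higher genes were SOC1, DIN10, AT5G55570 and the pseudogenes AT4G09875, AT4G16870 and AT2G11310. The lower ones were AT2G24760, AT2G09800, AT5G66053, AT5G53050, AT1G62620, AT1G23130, AT1G45165, AT3G06433, AT1G55990 and AT2G01010. AT1G23130, annotated as a polyketide cyclase and lipid transport protein and without an overlap, had 280.00, 267 and 305 CPM in Col-0 and 6.26, 1.21 and 1.94 CPM in IP-Svi-0 (-6.28 log2 units, SE 0.39, adjusted p = 1.93e-15). AT2G01010, a ribosomal RNA gene, had 3.35, 1623 and 4.65 CPM in Col-0 and 4.17, 0 and 5.82 CPM in IP-Svi-0, so that 1 library carried its call, the one with 26.5% of reads aligned more than once. Without that library its log2 difference was -0.33 and it was not called.

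Whether these differences belonged to 10 °C was tested as the accession difference at 10 °C minus the mean of those at 16, 23 and 27 °C. It was called higher for 50 genes (0.495%) and lower for 109 genes (1.08%), together 1.57%. The accessions differed in more genes at 10 °C (24%) than at 16 °C (8.22%), 23 °C (7.93%) or 27 °C (8.04%), and 324 of the 2422 genes called at 10 °C were called in the same direction at the other 3 temperatures. Depth was uneven. Col-0 libraries at 16 °C held 338784 to 381485 counts at genes, with 22.9 to 35.8% of reads aligned more than once. IP-Svi-0 libraries at 23 °C held 466105 to 508848 counts, the other groups at these temperatures 511199 to 799066, and the 10 °C libraries 355824 to 870567. With all libraries thinned to the smallest, 513 genes were higher and 962 lower at 10 °C, and with the covariate 477 and 577. The shares at the other temperatures were not taken from those fits, so whether depth shaped the gap between temperatures was not tested. The test of the difference rested on IP-Svi-0 replicate 2, without which 1 gene was higher and 2 were lower. Without Col-0 replicates 2 and 3 in turn the counts were 15 and 17, and 8 and 13. They were 91 and 256 without Col-0 replicate 1, 23 and 11 without IP-Svi-0 replicate 1, and 66 and 212 without IP-Svi-0 replicate 3. With the covariate they were 32 and 14.

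Photosynthesis genes were among those that passed. The antenna had 5 of 20 members called higher in this test, LHCA3, LHCA6, LHCB4.2, LHCB4.3 and LHCB6. For LHCB4.3 the accession difference was 1.71 at 10 °C and 0.13, -0.15 and -0.045 at 16, 23 and 27 °C (difference of differences 1.73, SE 0.31, adjusted p = 0.00814). In the Calvin cycle 3 of 20 were called, RBCS1A (1.38, SE 0.34, adjusted p = 0.0335), RBCS2B (1.35, SE 0.31, adjusted p = 0.0254) and the aldolase FBA1 (1.12, SE 0.28, adjusted p = 0.0339). CAT2 (1.02), FD1 (1.61), GLN1.2 (1.03) and BAM3 (1.04) were called too. Without IP-Svi-0 replicate 2 the adjusted p of LHCB4.3 was 0.051, that of RBCS2B 0.126 and that of RBCS1A 0.182. All 20 Calvin cycle members, all 15 of photorespiration and all 20 of the antenna had a larger difference at 10 °C than at the mean of the other temperatures, as had 50% of all tested genes. In the Calvin cycle list 1, 0 and 0 members were called higher at 16, 23 and 27 °C, where 2.4, 3.05 and 2.49% of all tested genes were. The medians of the 3 lists at the other temperatures were 0.31, 0.24 and -0.13.

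**Figure D5:**
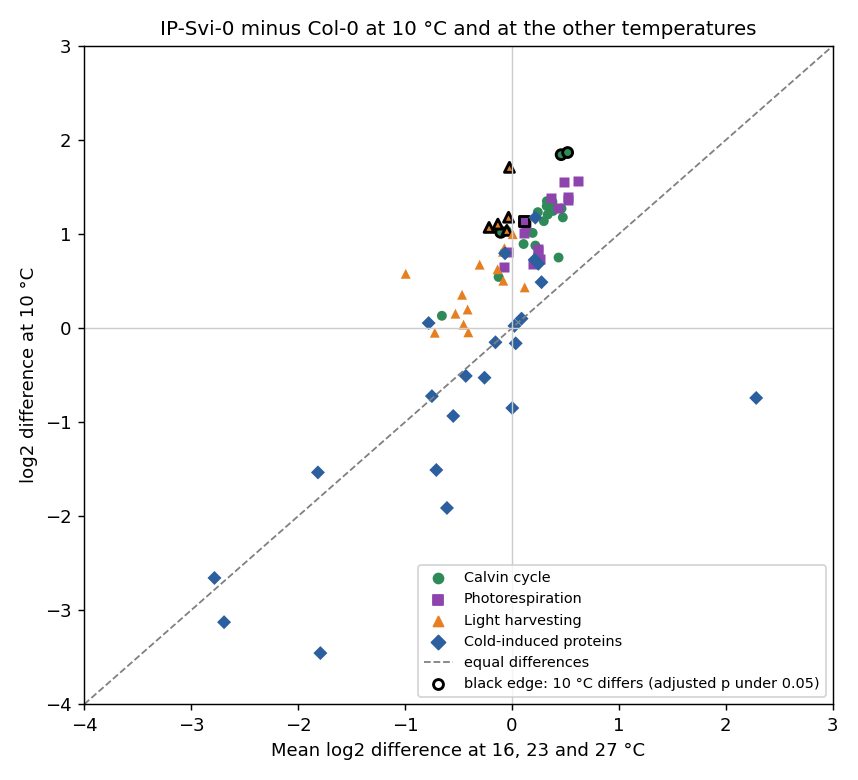
Accession difference (log2, IP-Svi-0 minus Col-0) at 10 °C on the vertical axis against the mean of the differences at 16, 23 and 27 °C on the horizontal axis, for tested members of 4 lists. Each point is 1 gene, the dashed line marks equal differences, and a black edge marks genes whose difference at 10 °C departs from that mean at an adjusted p under 0.05. Calvin cycle, photorespiration and antenna genes lie above the line, and the cold-induced genes lie on both sides, with none edged.

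The cold-induced proteins did not pass this test, with 0 of 22 called in either direction. COR15A differed by -3.37, -3.16 and -1.81 at 16, 23 and 27 °C, and KIN2 by -3.31, -2.94 and -1.82, so that both were lower at each temperature. XERO2 (-1.31, SE 0.37, adjusted p = 0.0576) and KIN1 (-1.66, SE 0.54, adjusted p = 0.0918) were the members nearest to a call. Lower counts at 16, 23 and 27 °C were called for 7, 3 and 2 members (5.82, 4.88 and 5.56% of all tested genes). The anthocyanin genes DFR and LDOX likewise were lower at each temperature, by -2.43, -3.97 and -1.97 and -1.94, -3.17 and -1.95, and neither was called in the test.

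Among the genes whose difference was higher at 10 °C was SZF1, a zinc finger protein of salt stress. It had 20.1, 8.08 and 20.9 CPM in Col-0 and 33.4, 53.2 and 81.5 CPM in IP-Svi-0 at 10 °C (1.598 log2 units, SE 0.39, adjusted p = 0.00274), and differed by -0.94, -3.004 and -2.13 at 16, 23 and 27 °C. Its difference of differences was 3.62, and it was called in all 16 alternatives other than the fold threshold. ACS6, an enzyme of ethylene synthesis, had 1.68, 4.04 and 6.98 CPM and 16.7, 22.98 and 19.4 CPM at 10 °C and differed by 0.79, -1.31 and -1.202 elsewhere. HR4, a relative of the mildew resistance protein RPW8, differed by -1.71 at 10 °C (adjusted p = 0.0174) and by -1.33, -6.98 and -6.83 at the others. WRKY33, a defence factor, had overlapping ranges at 10 °C (0.37, adjusted p = 0.481) and differed by 0.026, -2.19 and -2.32 at the others (1.87, SE 0.41, adjusted p = 0.0185).

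Of the named genes 10 were lower at 10 °C in this test. CYP710A2, a sterol desaturase, had 25.1, 48.5 and 25.6 CPM in Col-0 and 0, 2.42 and 0 CPM in IP-Svi-0 and differed by -1.74, -1.04 and -1.03 at the other temperatures (-3.56, SE 0.75, adjusted p = 0.0144). AGL67, a MADS factor known from seeds, had 26.8, 52.5 and 44.2 CPM and 2.09, 3.63 and 0 CPM, and differed by -1.91, 0.93 and 2.16 elsewhere. AGL67 was called in 2 of the 6 leave-one-out fits and CYP710A2 in 5. AT1G29220, annotated as a transcriptional regulator family protein, had 905, 8.08 and 13.95 CPM in Col-0 and 23.98, 18.1 and 25.2 CPM in IP-Svi-0, so that 1 library, Col-0 replicate 1, carried its call. Without that library its log2 difference was 0.94 and was not called. Of 11 tested seed storage genes 0 were higher and 2 lower at 10 °C, SESA2 (-3.46, adjusted p = 0.036) and SESA3 (-3.69, adjusted p = 0.0422). The lower count was 0 without Col-0 replicate 1 or IP-Svi-0 replicate 2, 1 without IP-Svi-0 replicate 3 and 4 without Col-0 replicate 3. At 16 °C 1 was higher and 0 lower, at 23 °C 3 and 2, and at 27 °C 8 and 0 (2.49% of all tested genes were higher there), where the seedlings were 7 days from transfer and not 23.

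Among 5 tested flowering genes kept for reference, SOC1, which promotes flowering, was higher (3.61 log2 units, SE 0.597, adjusted p = 1.94e-05), and FLM and VRN2, a repressor of flowering and a part of the vernalization complex, were lower (-1.83 and -2.46).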

How the data were processed

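The deposited table holds read counts per gene, whole numbers as the authors' counting step gave them. Reads were checked with FastQC, aligned with HISAT2 and counted with HTSeq, and Cufflinks and Cuffdiff were also run on TAIR10, per the submitters' processing notes, which give no versions. Libraries were strand-specific mRNA libraries, per the labels' protocols, and no source used here gives the strand setting of the counting. The table has 33602 gene IDs, of which 32835 matched the TAIR10.1 annotation of RefSeq, and 5 lines that are not genes, which stayed out of library sizes and tests. The depth of each library limits precision, and floors of 3 counts cover counting error only.

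All 24 libraries were fitted together with edgeR 4.0.16 in R 4.3.3 (quasi-likelihood test, TMM scaling, at least 10 counts by filterByExpr, 8 groups of 3), and contrasts were taken from that fit. Adjusted p-values are Benjamini-Hochberg values over the 10097 tested genes, and calls use 0.05. CPM values are counts over TMM-scaled library sizes. The members, lists and rules were chosen with earlier results of these data known, and the ribosomal name pattern was widened after a first one matched 8 genes. Genes named in the text were, for each list, at most 4 called members higher and 4 lower with a mean of 10 CPM or more in an accession, all cold-induced members, the 10 largest called differences each way with 1 CPM or more in both accessions, the 6 largest each way in the test against the other temperatures, the 5 genes each way with most counts in 1 accession alone, and genes that overlap these. Other genes named were chosen after their values were seen. The same replicate numbers were not consistently correlated between accessions (r of 0.26, -0.14 and 0.050 at 10 °C). Libraries with unlike numbers had r of -0.32 to 0.24, so the same numbers were not treated as pairs. The script was tested on simulated data. Alternatives used DESeq2 1.42.0, other filters, scalings and covariates, and each 10 °C library left out in turn.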

Additional observations from a re-analysis of the deposited data

Results flagged for a closer look

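Among the named genes 25 had an accession difference at 10 °C that differed from the mean of those at 16, 23 and 27 °C by the interaction contrast of edgeR's quasi-likelihood test with Benjamini-Hochberg adjustment, 15 higher and 10 lower. The values below are log2 differences of differences, and their causes were not tested. The 10 °C plants were also older, so that temperature and age cannot be told apart.

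Among genes of photosynthesis and nitrogen, the values were 1.73 for LHCB4.3, 1.24 for LHCB4.2, 1.21 for LHCB6, 1.61 for FD1, 1.38 for RBCS1A, 1.35 for RBCS2B, 1.02 for CAT2 and 1.03 for GLN1.2. LHCB4.3 was called in 15 of 16 alternatives and CAT2 in 5 of 15. Among stress, defence and sugar genes the values were 3.62 for SZF1, 3.34 for HR4, 3.11 for DIN10, 2.83 for ACS6 and 1.79 for UGT74B1. SZF1 was called in 16 of 16 alternatives, and HR4, ACS6 and UGT74B1 in 1, 1 and 2 of the 6 that leave out a library. AT1G72910, annotated as a TIR domain protein, had 2.86, and AT5G24155, annotated as an oxidoreductase, had 2.93.

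On the lower side the values were -2.09 for MBF1C, -3.56 for CYP710A2, -4.46 for AGL67 and -2.91 for UGT85A5. AT1G27660, annotated as a bHLH protein, also had -2.91, AT1G45165 had -2.1, AT5G53050 had -1.94 and the chloroplast gene ATCG00390 had -3.83. Of the 6 fits that leave out a library, CYP710A2 was called in 5, MBF1C in 4, AT1G27660 in 3, AGL67, UGT85A5 and ATCG00390 in 2 each, and AT1G45165 and AT5G53050 in 1 each. With the overlap covariate MBF1C was the 1 called of these 8 (adjusted p = 0.00663), and AT5G53050 had -0.89 (adjusted p = 0.497). AT2G01010, a ribosomal RNA gene, had -6.87, and AT1G29220 had -4.33. In each of these last 2, counts at 10 °C were high in 1 Col-0 library, replicate 2 and replicate 1 in turn, and over the alternatives their values reached 0.13 and 0.49.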

How the results depend on the processing

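At 10 °C the counts of 968 higher and 1454 lower genes moved by over 1.5 times with the no-overlap share as a covariate (477 and 577), with genes without an overlap fitted alone (470 and 732), with libraries thinned to the smallest (513 and 962) and with a fold threshold of 1.5 (304 and 778). Without each 10 °C library in turn they were 570 to 966 and 1037 to 1535. Under DESeq2 they were 777 and 1357, and under its size factors, other filters, the 10 °C libraries alone and organelle genes left out, 942 to 1153 and 1420 to 1573. With the share of non-unique reads as a covariate, an alternative chosen after seeing the data, they were 739 and 1190. With replicate number as a block they were 973 and 1451, 48 and 122 in the test against the other temperatures, and 2 of 199 named calls were lost.

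In that test the counts of 50 higher and 109 lower became 116 and 191 with DESeq2, 76 and 172 with a filter of 1 CPM in 3 libraries, 32 and 14 with the overlap covariate, 23 and 28 with genes without an overlap, 11 and 26 with thinned libraries and 1 and 1 with the fold threshold. Without a filter 193 were lower. Leaving out a library gave 1 to 91 higher and 2 to 256 lower.

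Of 199 named genes called at 10 °C, 92 lost the call in at least 1 alternative other than the fold threshold, 69 of them with the covariate. Reversals were seen for AT4G14090 with the covariate (0.013) and AT1G29220 without Col-0 replicate 1 (0.94), whose value was -4.43 at the lowest, without Col-0 replicate 3. The accession difference in the no-overlap share was 9.52 percentage points, 8.01 with organelle genes included and 7.65 to 12.2 with a library left out, and that in the share of reads at genes was 1.08 and 0.765 to 1.45. The cause of these shifts was not tested. Few reads fell at genes, so low genes such as the CBF factors could not be compared at this depth.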
